A study of Mus musculus with 4 samples.

Results

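A group of 9 genes of the integrin adhesion machinery was followed in Py8119 cells, a mesenchymal-like line from a mammary tumour of a C57BL/6 mouse, with and without overexpression of Mtss1. They are the adaptor genes Sorbs2 and Sorbs3, the talin gene Tln1, the vinculin gene Vcl, the zyxin gene Zyx, the paxillin gene Pxn, the focal adhesion kinase gene Ptk2 and the tensin genes Tns1 and Tns3. All 9 were found by symbol, each on 1 row, among the 50600 genes of the deposited expression table. They were picked around Sorbs2, whose difference between the groups was the largest rise in the table, so their values in this comparison are given as a description, with no p-values. Cells overexpressing Mtss1 (2 libraries, Mtss1 overexpression 1 and 2) were compared with control cells (2 libraries, titled hygro, control 1 and 2). Both groups are the same untreated line grown in IMDM with 10% fetal bovine serum. The labels give no vector or promoter for the transgene, do not expand the word hygro, and do not say whether a population was 1 clone or a pool, or whether replicates were cultured apart. P-values given for other genes therefore cover only library-to-library spread, part or all of which may be technical.

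Focal adhesions are the plaques at which integrins, the cell's receptors for extracellular matrix, are tied to the ends of actin stress fibres. Talin binds the integrin tail and actin, vinculin reinforces that link under tension, zyxin follows tension along the fibre, and paxillin and focal adhesion kinase turn adhesion into signalling. Tensins join integrin tails to actin, and tensin 1 is typical of fibrillar adhesions. The SoHo adaptors, such as those encoded by Sorbs2 (ArgBP2) and Sorbs3 (vinexin), use an N-terminal sorbin homology domain and C-terminal SH3 domains to gather vinculin, Abl kinases and Cbl at adhesions and stress fibres. Mtss1 is itself an actin-linked scaffold that bends the plasma membrane.

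The libraries held 15594209 and 16656638 recovered reads with Mtss1 overexpression and 20617788 and 22081639 in control. Values are CPM, read counts scaled to about 1000000 per library. Mtss1 read 118 and 119 CPM with overexpression, against 54.5 and 50.5 CPM in control, a log2 difference of 1.16 ± 0.05 (SE; limma adjusted p = 4.8e-15). The cells are labelled mesenchymal-like, and all 8 mesenchymal markers examined passed the expression filter (at least 1 CPM in at least 2 libraries). They summed to 12577 and 12722 CPM with overexpression and 14497 and 14627 CPM in control. The largest part was Fn1, at 7960 and 8244 CPM with overexpression and 10026 and 9858 CPM in control. The list went both ways. Twist1 and Zeb1 were higher, by log2 differences of 0.51 and 0.17, Vim was level (-0.01), and Zeb2, Snai1, Pdgfrb and Cdh2 were lower, as was Fn1. Epcam read 0 in all 4 libraries. Of the 8 luminal markers 3 passed the filter, Krt8, Krt18 and Esr1, and the list summed to 627 and 632 CPM with overexpression and 876 and 923 CPM in control. Krt8 read 367 and 368 CPM with overexpression, against 562 and 608 CPM in control (log2 difference -0.67, limma adjusted p = 4.1e-13). The part of these shifts in the values of the 9 genes was not tested.

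Sorbs2 was nearly silent in control cells and abundant with Mtss1 overexpression. It read 119 and 129 CPM in the overexpression libraries, against 1.37 and 1.93 CPM in control, where those values rest on 28 and 42 reads. Both overexpression libraries lay far above both control libraries. The means were 124 ± 6.81 CPM with overexpression and 1.65 ± 0.397 CPM in control (SD, n = 2 each), 75.1-fold higher, and on the log2(CPM + 1) scale the difference was 5.57 ± 0.11 (SE). Among 12510 tested genes this ranked 1 by size. The log2(CPM + 1) scale understates changes of low genes, and with a pseudocount of 0.1 the difference was 6.17. In bulk RNA a change in the number of cells that express a gene and a change in RNA per cell cannot be told apart.

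Sorbs2 lies on chromosome 8, plus strand, from 45507788 to 45827906 (mm10), and is annotated with 25 coding transcripts. The values are per gene and do not say which start was in use. RefSeq promoter entries (build GRCm38.p6, the assembly of mm10) were found for 6 of the 9 genes. The 250 bases before each of the 3 listed starts of Sorbs2 are shown because this gene changed most, with those of Vcl, an abundant gene that changed little, and Tns1, which fell most among the 9, beside them. Capitals mark matches on either strand to the TEAD motif GGAATG, the SRF CArG box, the AP-1 motif TGANTCA, the NF-kB consensus, the TATA box TATAAA or the GC box GGGCGG, and adjoining matches run together.
Sorbs2 start 1, chr8:45507538-45507787, plus strand: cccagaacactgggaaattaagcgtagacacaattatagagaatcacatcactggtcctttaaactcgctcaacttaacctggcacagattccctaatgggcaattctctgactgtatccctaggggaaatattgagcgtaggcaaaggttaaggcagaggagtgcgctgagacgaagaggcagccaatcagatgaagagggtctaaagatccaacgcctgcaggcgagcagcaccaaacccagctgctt
Sorbs2 start 2, chr8:45627501-45627750, plus strand: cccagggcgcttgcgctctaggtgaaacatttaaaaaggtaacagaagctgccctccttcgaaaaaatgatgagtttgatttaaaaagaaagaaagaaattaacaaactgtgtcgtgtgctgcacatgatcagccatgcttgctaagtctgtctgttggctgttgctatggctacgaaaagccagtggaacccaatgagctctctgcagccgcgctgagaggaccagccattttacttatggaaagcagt
Sorbs2 start 3, chr8:45661743-45661992, plus strand: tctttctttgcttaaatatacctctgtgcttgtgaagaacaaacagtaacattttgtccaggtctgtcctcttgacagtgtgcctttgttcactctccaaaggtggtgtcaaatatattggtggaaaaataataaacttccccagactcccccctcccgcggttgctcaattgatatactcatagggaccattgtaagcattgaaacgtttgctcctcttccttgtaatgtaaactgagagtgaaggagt
Vcl, chr14:20929148-20929397, plus strand: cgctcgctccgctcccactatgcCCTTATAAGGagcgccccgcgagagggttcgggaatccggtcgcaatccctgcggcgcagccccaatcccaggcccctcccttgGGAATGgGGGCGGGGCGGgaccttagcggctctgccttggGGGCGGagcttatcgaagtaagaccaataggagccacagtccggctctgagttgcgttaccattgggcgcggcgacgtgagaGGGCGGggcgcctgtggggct
Tns1, chr1:74124549-74124798, minus strand: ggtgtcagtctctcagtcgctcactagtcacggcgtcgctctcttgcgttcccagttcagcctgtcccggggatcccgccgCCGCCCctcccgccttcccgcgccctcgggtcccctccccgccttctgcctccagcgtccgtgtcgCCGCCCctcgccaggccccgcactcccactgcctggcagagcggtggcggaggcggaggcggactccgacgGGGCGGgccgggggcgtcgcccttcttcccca
None of the 6 motifs was found in the windows of Sorbs2, which says only that these letters are not there. The Vcl window held 1 CArG box, CCTTATAAGG, which starts 227 bases before the gene's start, 1 TEAD motif and 4 GC boxes. The window of Tns1 held 3 GC boxes. Of the windows not shown, that of Tln1 also held none of the 6 motifs, and those of Zyx and Tns3 held matches. Over 32817 promoters of the same length, 1.47% held a CArG box, 12.6% the TEAD motif, 6.75% the AP-1 motif, 3.9% the NF-kB consensus, 12.4% the TATA box and 32.7% a GC box. The windows of Sorbs2 starts 1 and 2 held 7 CpG each, near the median of 6 over all promoters. That of start 3 held 3, below the median, and 29.1% of promoters held fewer. The windows of Vcl and Tns1 held 24 and 30.

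**Figure D1:**
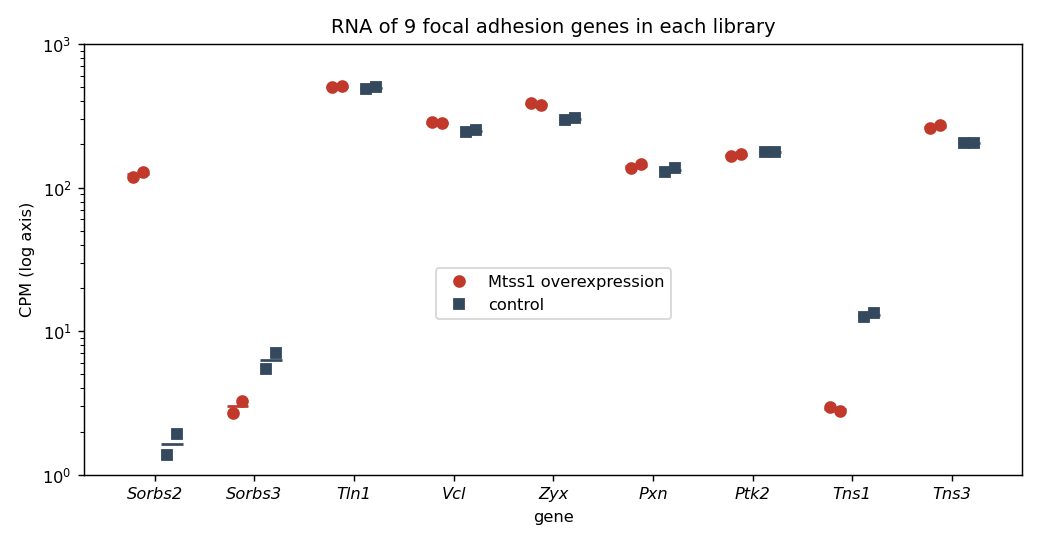
CPM of the 9 genes in each library on a log axis, with Mtss1 overexpression as circles to the left and control as squares to the right of each gene, and a line at each mean of 2 libraries. Sorbs2 is at 119 and 129 CPM in the overexpression libraries and at 1.37 and 1.93 CPM in control, Tns1 is at 2.96 and 2.8 CPM in the overexpression libraries and at 12.6 and 13.4 CPM in control, and the abundant genes differ by at most 1.29-fold.

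The other SoHo adaptor of the group, Sorbs3, went the opposite way. It read 2.71 and 3.27 CPM with Mtss1 overexpression, against 5.49 and 7.09 CPM in control, and the groups did not overlap. Its mean was 2.99 ± 0.398 CPM with overexpression and 6.29 ± 1.13 CPM in control (SD, n = 2 each), 2.1-fold lower with overexpression, with a log2 difference of -0.86 ± 0.16 (SE). Sorbs3 encodes vinexin, which binds the hinge of vinculin, and lies on chromosome 14 from 70180468 to 70211989. It is a low gene, and over 13 alternative settings its log2 difference ran from -1.06 to -0.49.

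The balance between Sorbs2 and Sorbs3 was turned round in every library. The ratio of Sorbs2 to Sorbs3 in CPM was 44 and 39.4 with Mtss1 overexpression and 0.25 and 0.273 in control. Per kilobase of annotated exon Sorbs2 stood at 4.28 and 4.63 CPM per kb with overexpression and 0.0492 and 0.0694 CPM per kb in control, and Sorbs3 at 0.747 and 0.902 CPM per kb with overexpression and 1.51 and 1.95 CPM per kb in control. So Sorbs2 lay above Sorbs3 in both overexpression libraries and below it in both control libraries. The size of the gap depends on the length used, since the exons of Sorbs2 cover 27851 bases and its longest coding transcript is 6337 bases long. With longest coding transcripts the mean level of Sorbs2 was 19.6 CPM per kb with overexpression and 0.261 CPM per kb in control, and that of Sorbs3 was 0.977 CPM per kb with overexpression and 2.05 CPM per kb in control, which leaves the order in each group the same.

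The 2 tensin genes also parted. Tns1 read 2.96 and 2.8 CPM with Mtss1 overexpression, against 12.6 and 13.4 CPM in control. Its mean was 2.88 ± 0.117 CPM with overexpression and 13.0 ± 0.533 CPM in control (SD, n = 2 each), 4.52-fold lower with overexpression, and the log2 difference was -1.85 ± 0.13 (SE). Among all tested genes Tns1 ranked 68 by size of fall. Tns3, whose product takes part in adhesion turnover and cell migration, read 258 and 272 CPM with overexpression, against 205 and 206 CPM in control. Its mean was 265 ± 10.0 CPM with overexpression and 205 ± 0.646 CPM in control (SD, n = 2 each), 1.29-fold higher, with a log2 difference of 0.37 ± 0.04 (SE). The groups did not overlap for either gene.

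Tns1 and Tns3 lie on chromosome 1 from 73910231 to 74124449 and on chromosome 11 from 8431652 to 8664535. The ratio of Tns3 to Tns1 in CPM was 87.1 and 97.4 with overexpression and 16.2 and 15.4 in control. Tns1 was a small part of all tensin RNA in both groups. Per kilobase of exon it made up 0.352% and 0.328% of the tensin sum with overexpression and 1.5% and 1.57% in control. Tns3 made up 43.9% and 45.7% with overexpression and 34.9% and 34.4% in control. The sum over Tns1, Tns2, Tns3 and Tns4 was 52.6 and 53.3 CPM per kb with overexpression and 52.5 and 53.4 CPM per kb in control, so with this length the overexpression libraries lay inside the range of the control libraries. The sum depended on the length: with longest coding transcripts it was 68.3 and 69.5 CPM per kb with overexpression and 66.7 and 67.8 CPM per kb in control, and in plain CPM 421 and 431 with overexpression and 399 and 405 in control, both without overlap. The remaining tensins were lower with overexpression, Tns2 by a log2 difference of -0.17 ± 0.04 and Tns4 of -0.80 ± 0.11 (limma adjusted p = 0.00095 and 1.7e-06).

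**Figure D2:**
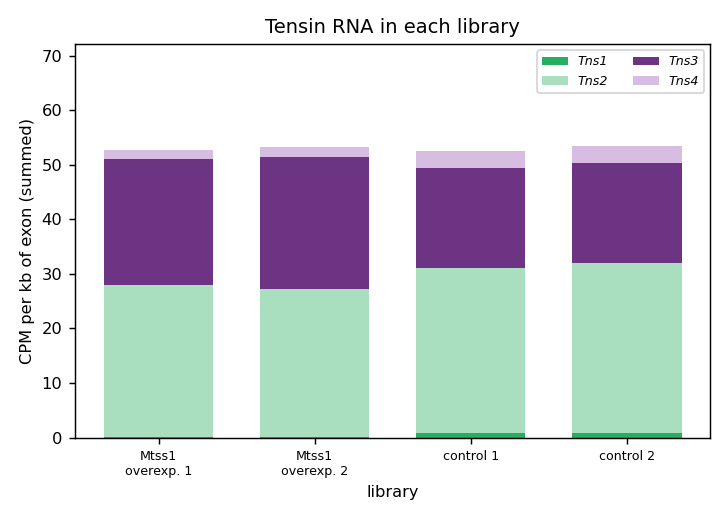
Stacked CPM per kb of annotated exon of the 4 tensin genes in each library, with the overexpression libraries left of the control libraries. The bars reach 52.5 to 53.4 CPM per kb in all 4 libraries with this length, while without a length correction they sum to 421 and 431 CPM with overexpression and 399 and 405 CPM in control. The Tns3 block fills 43.9% and 45.7% of the bar in the overexpression libraries and 34.9% and 34.4% in control.

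The RNA of the plaque genes whose products carry force differed by at most 1.27-fold between the group means. Tln1, chromosome 4 from 43531519 to 43562691, read 498 and 508 CPM with Mtss1 overexpression, against 483 and 499 CPM in control, and the groups overlapped (log2 difference 0.03 ± 0.03). Vcl, chromosome 14 from 20929398 to 21033676, read 286 and 281 CPM with overexpression, against 243 and 250 CPM in control, without overlap, a 1.15-fold higher mean (0.20 ± 0.04). Zyx, chromosome 6 from 42349630 to 42360213, read 389 and 374 CPM with overexpression, against 296 and 306 CPM in control, also without overlap, a 1.27-fold higher mean (0.34 ± 0.04). Within each library the ratio of Vcl to Tln1 in CPM was 0.574 and 0.554 with overexpression and 0.504 and 0.501 in control, so vinculin RNA was higher relative to talin RNA in both overexpression libraries.

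The signalling pair was close to level. Pxn, the scaffold on which kinases and GTPase regulators dock, read 137 and 145 CPM with Mtss1 overexpression, against 129 and 137 CPM in control, and its groups overlapped (log2 difference 0.08 ± 0.04). Ptk2, the tyrosine kinase that phosphorylates paxillin, read 165 and 172 CPM with overexpression, against 178 and 178 CPM in control, slightly lower without overlap (-0.08 ± 0.04). Over 13 alternative settings Pxn ran from 0.04 to 0.13 and Ptk2 from -0.11 to -0.04. Pxn lies on chromosome 5 from 115506676 to 115555987 and Ptk2 on chromosome 15 from 73205102 to 73423280.

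In the fit across all genes, 4 of the 9 were higher and 2 lower at a limma adjusted p under 0.05, which is 66.7% of them, and 66.1% of all 12510 tested genes passed in either direction (31.9% higher, 34.2% lower). The groups did not overlap for 7 of the 9, with 4 higher and 3 lower, and for 81.6% of all tested genes (39.7% higher, 41.9% lower). Since the members were chosen from this same comparison, nothing is read from these counts. The median log2 difference of the 9 was 0.08, in a range of -1.85 to 5.57, and that of all tested genes was -0.01.

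**Figure D3:**
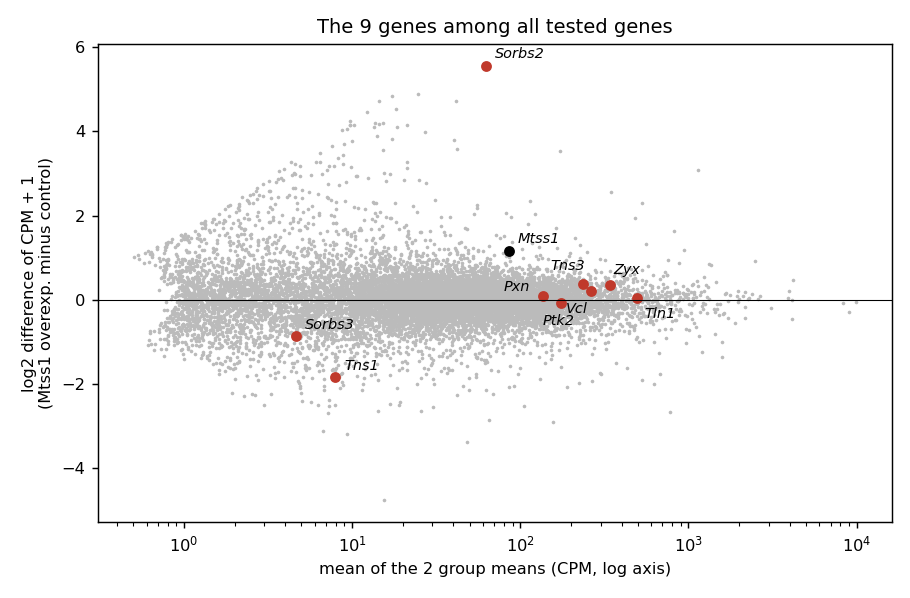
Log2 difference of CPM + 1 (Mtss1 overexpression minus control) against the mean of the group means in CPM on a log axis, with all 12510 tested genes in grey, the 9 genes in red and Mtss1 in black. Sorbs2 is the highest point at 5.57, Tns1 and Sorbs3 lie at -1.85 and -0.86, and the 6 abundant genes lie between -0.08 and 0.37.

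By level per kilobase of exon, the order of the abundant genes was the same in both groups. With Mtss1 overexpression Zyx led with 70.8 CPM per kb, followed by Tln1 with 51.3, Vcl with 34.6, Tns3 with 23.7, Pxn with 17.2 and Ptk2 with 14.3. In control the same genes had 55.9, 50.1, 30.1, 18.3, 16.2 and 15.1 CPM per kb in that order. The order of the rare genes changed. With overexpression Sorbs2 (4.45 CPM per kb) stood above Sorbs3 (0.824) and Tns1 (0.18), and in control Sorbs3 (1.73) stood above Tns1 (0.813) and Sorbs2 (0.0593). No neighbours in either order overlapped in their library values. With longest coding transcripts in place of exons Tns3 moved to rank 6, below Pxn and Ptk2, in both groups, and in control Ptk2 stood above Pxn.

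Of 84 other adhesion genes tested, 33 rose, 33 fell and 18 did not pass, so 78.6% passed, against 66.1% of all tested genes. Their median log2 difference was -0.03, and in the separate lists below the share that passed ran from 69.7% to 91.7%. Another 12 of the 96 genes in these lists were under the expression filter, among them Fermt1, Kank4 and Pdlim3, which read 0 in all libraries.

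Among talin regulators and the complex of integrin-linked kinase, PINCH and parvin, which couples integrins to actin beside talin, 5 rose, 6 fell and 1 did not pass. Both PINCH genes rose. Lims2 (PINCH2) read 29.6 and 24.6 CPM with Mtss1 overexpression, against 6.27 and 6.3 CPM in control (log2 difference 1.94 ± 0.11, limma adjusted p = 7.5e-13), and Lims1 rose by 0.51 ± 0.04. Tln2, the paralog of Tln1 and counted in this list, rose to 38.1 and 38.7 CPM with overexpression, against 25.4 and 28.8 CPM in control (0.49 ± 0.07, limma adjusted p = 5.2e-06). Parva, the gene of alpha-parvin, the partner of integrin-linked kinase, fell to 124 and 121 CPM with overexpression, against 198 and 207 CPM in control (-0.72 ± 0.04, limma adjusted p = 5.1e-13). Ilk, the gene of the kinase itself, and Parvb fell less, by 0.13 and 0.12 on the log2 scale (limma adjusted p = 0.017 and 0.004). The low gene Parvg missed the threshold (limma adjusted p = 0.17). Rsu1, whose product binds PINCH1, fell by 0.38 on the log2 scale, and Apbb1ip, the gene of the talin recruiter RIAM, fell by 0.35. Kank3, one of the talin-binding KANK genes, rose and read 3.84 and 3.33 CPM with overexpression, against 0.833 and 1.24 CPM in control (1.18 ± 0.18).

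Of 11 family relatives of the 9 genes, talin excepted, 2 rose, 7 fell and 2 missed the threshold, with a median log2 difference of -0.16. Lpxn, which encodes leupaxin of the paxillin family, fell to 0.378 and 0.833 CPM with Mtss1 overexpression, against 3.62 and 3.41 CPM in control (log2 difference -1.51 ± 0.19, limma adjusted p = 3.7e-07). Ptk2b, the gene of Pyk2, the kinase most like focal adhesion kinase, read 15.8 and 17.0 CPM with overexpression, against 20.9 and 24.0 CPM in control (-0.43 ± 0.10, limma adjusted p = 0.00043). The LIM domain genes related to zyxin went both ways. Wtip and Fblim1 rose by 0.31 ± 0.06 and 0.22 ± 0.04. Trip6, Lpp and Ajuba fell by 0.25, 0.16 and 0.13 on the log2 scale (limma adjusted p = 0.00053, 0.0018 and 0.025). Limd1 missed the threshold (limma adjusted p = 0.11).

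Of 15 LIM and actin-linking genes 8 rose, 4 fell and 3 missed the threshold. Fhl1, a LIM-only protein of muscle and stress fibres, stood apart from the rest of its list, with 74.2 and 78.0 CPM with Mtss1 overexpression, against 4.21 and 4.97 CPM in control (log2 difference 3.79 ± 0.09, limma adjusted p = 2.6e-19). The next largest were Csrp2 with 0.69 ± 0.13 and Csrp1 with 0.43 ± 0.04, which encode LIM proteins that bind actin bundles. Fhl3 fell by 0.39 on the log2 scale, Pdlim2 by 0.32 and Svil, the supervillin gene, by 0.20. The call for Svil was lost without control 2 (limma adjusted p = 0.06).

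Among 33 signalling kinases, adaptors and GTPase regulators 11 rose, 12 fell and 10 did not pass. The largest rises were the 3 genes of one family of GTPase-activating proteins that sit at focal adhesions and bind tensins. Dlc1 read 51.4 and 56.2 CPM with Mtss1 overexpression, against 18.0 and 17.9 CPM in control (log2 difference 1.53 ± 0.07, limma adjusted p = 3.4e-14). Stard8 (DLC3) read 8.82 and 9.05 CPM with overexpression, against 2.69 and 2.85 CPM in control (1.40 ± 0.14, limma adjusted p = 1.4e-08), and Stard13 (DLC2) read 55.9 and 59.1 CPM with overexpression, against 23.0 and 24.9 CPM in control (1.23 ± 0.07, limma adjusted p = 4.5e-13). The groups did not overlap for any of the 3. The largest falls were Nedd9, a docking protein for focal adhesion kinase and Src, with 11.3 and 10.7 CPM with overexpression against 25.7 and 21.5 CPM in control (-1.03 ± 0.10, limma adjusted p = 1.2e-08), the low gene Elmo1 (-1.01 ± 0.21, limma adjusted p = 0.00021) and Asap1, an Arf GTPase-activating protein of adhesions, with 318 and 330 CPM with overexpression against 552 and 568 CPM in control (-0.79 ± 0.03, limma adjusted p = 7e-15).

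Known ligands and partners of SoHo adaptors spanned a range of -0.58 to 0.45. Of these 13 genes 7 rose, 4 fell and 2 missed the threshold. Abl1 rose by 0.45 ± 0.04 to 195 and 198 CPM with Mtss1 overexpression, against 141 and 147 CPM in control (limma adjusted p = 1.3e-09). Cblb rose by 0.28 ± 0.08, and Afdn, the afadin gene, by 0.25 ± 0.04. Synj2, a lipid phosphatase gene, fell by 0.58 on the log2 scale and Wipf1 by 0.48. Flot1 fell by 0.14, a call that was lost in 6 of 13 alternative settings, among them those without Mtss1 overexpression 2 (-0.08, limma adjusted p = 0.19), without control 1 (0.05) and without control 2 (0.055).

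**Figure D4:**
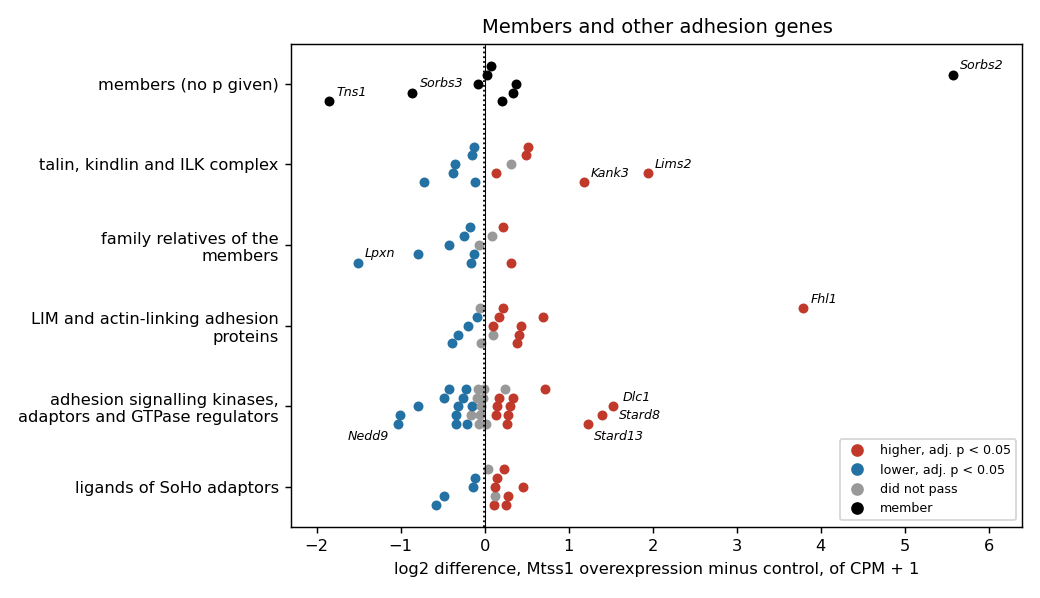
Log2 difference of CPM + 1 (Mtss1 overexpression minus control) of each tested gene, by list, with the 9 members in black, genes with a limma adjusted p under 0.05 in red (higher) or blue (lower) and the rest in grey, and a dotted line at the median of all tested genes, -0.01. Sorbs2 at 5.57 and Fhl1 at 3.79 lie apart from the others, and the family relatives of the members lie mostly to the left of 0.

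The genes whose log2(CPM + 1) values over the 4 libraries lay nearest to those of Sorbs2 were Enah, Fhl1 and Chmp4c, at Euclidean distances of 0.94, 1.82 and 1.85. Enah, the gene of an Ena/VASP actin elongation factor that also sits at focal adhesions, read 82.3 and 78.4 CPM with Mtss1 overexpression, against 1.71 and 2.49 CPM in control. Chmp4c, of the ESCRT membrane-scission machinery, read 50.5 and 53.8 CPM with overexpression, against 2.65 and 2.07 CPM in control. With 4 libraries in 2 groups, this likeness reflects level and group difference alone.

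The difference in Sorbs2 was not shared by its neighbours on chromosome 8. Tlr3, 96.7 kb before it, fell to 19.6 and 18.5 CPM with Mtss1 overexpression, against 48.5 and 50.8 CPM in control (log2 difference -1.34 ± 0.07, limma adjusted p = 3.3e-13). Fam149a rose by 0.42 ± 0.04 and Cyp4v3 fell by 0.35 on the log2 scale, a call that was lost without control 1 (-0.26, limma adjusted p = 0.069). On the other side, 1700029J07Rik missed the threshold (limma adjusted p = 0.91), Ufsp2 rose by 0.20 ± 0.06 and Ankrd37, 169 kb away, fell to 2.84 and 2.26 CPM with overexpression, against 13.3 and 15.2 CPM in control (-2.11 ± 0.14). Of 24 tested genes within 2 Mb of Sorbs2, 8 were higher and 10 lower, beside 31.9% and 34.2% of all tested genes. The median of the 24 was -0.06. The largest rise among them was Gm45457, a sense-strand annotation inside an intron of Sorbs2 (45779228 to 45782316), with 3.91 and 3.09 CPM with overexpression and 0 in both control libraries. Gm45457 is annotated as a transcript that still awaits experimental support, and unspliced Sorbs2 RNA has the same sequence there, so reads of the 2 cannot be told apart. The sources used here do not state whether counting used strand, and the antisense gene Sorbs2os read at most 0.126 CPM in any library.

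**Figure D5:**
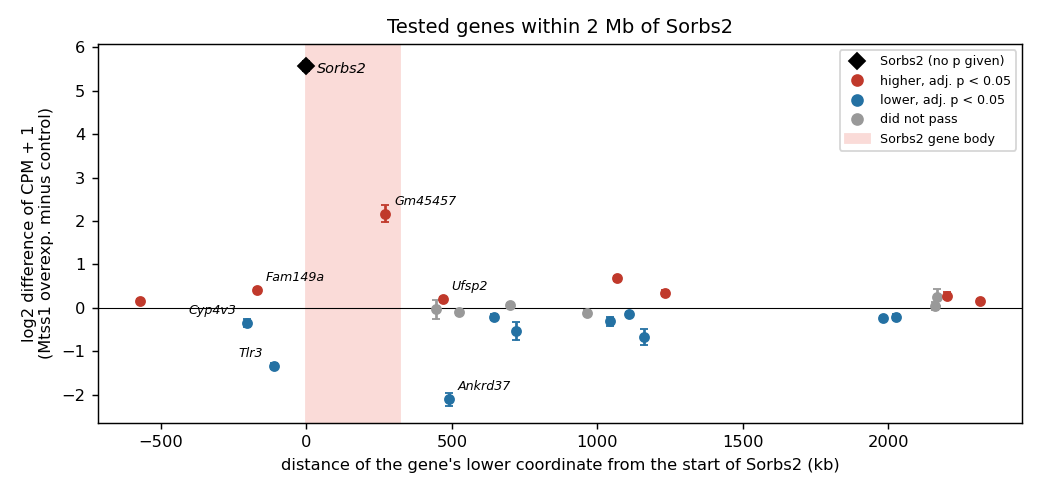
Log2 difference of CPM + 1 (Mtss1 overexpression minus control) with its standard error for Sorbs2 (diamond, no p given) and the 24 other tested genes within 2 Mb of it, against the distance of each gene's lower coordinate from the start of Sorbs2 in kb, with the body of Sorbs2 shaded and colours for the limma call as in the legend. The point inside the shading is Gm45457, whose fitted difference depends on the pseudocount because control reads 0, and the adjacent genes on both sides lie between -2.11 and 0.42.

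Sorbs2 is also a gene of heart muscle and neurons, so markers of these cells were examined. Of 12 striated muscle markers 3 passed the filter, and their list summed to 45.6 and 48.1 CPM with Mtss1 overexpression and 20.8 and 25.6 CPM in control, mostly from Tnnt2 (33.2 and 36.7 CPM with overexpression, 14.4 and 19.1 CPM in control). The defining genes Myh6, Actc1, Myog, Myod1, Csrp3 and Ryr2 read 0 in all libraries. Of 7 neuronal markers 3 passed, with a sum of 73.6 and 78.1 CPM with overexpression and 23.5 and 22.8 CPM in control, mostly Map2. Syt1 and Tubb3 also passed and were higher, by log2 differences of 1.85 and 0.28, and Rbfox3 and Snap25 read 0 throughout. The 7 smooth muscle and myoepithelial markers summed to 0.882 and 0.868 CPM with overexpression and 0.493 and 0.504 CPM in control. The 5 endothelial markers summed to at most 1.19 CPM, and the 8 immune markers to 96.3 and 96.1 CPM with overexpression and 22.3 and 21.2 CPM in control, almost all from the lysosomal gene Cd68. Their part in the values of the 9 genes was not tested.

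A few of the 9 genes share ground with other genes whose reads could be mixed with theirs. Vcl overlaps the opposite-strand gene Ap3m1, which read 68.6 and 78.1 CPM with overexpression and 69.6 and 66.7 CPM in control, and Tln1 overlaps Creb3, at most 36.5 CPM. The genes found to overlap Zyx read at most 1.39 CPM.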

How the data were processed

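RNA of 4 libraries, 2 per group, was sequenced. Total RNA was extracted with Trizol and read from both ends over 150 bases, per the labels' protocols. FastQC 0.11.2, STAR, RSEM and the build mm10 are named, without roles, in the submitters' processing notes. The deposited values are CPM, an assignment made from the values, since the columns sum to between 982877 and 1016225. The sources used here do not state what scaled them. Each library's values step by a hundredth of the CPM of 1 read, and 79.6% to 80.5% of nonzero values are whole reads within 0.005 read, so expected counts were recovered for the depths. A floor of 3 reads is 0.138 to 0.189 CPM.

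Replicates of a group differed by more than sampling noise, with a median chi-square over genes of 1.69 (Mtss1 overexpression) and 1.95 (control) times the Poisson value. Log2(CPM + 1) values were fitted in limma 3.58.1 under R 4.3.3, with the trend option of eBayes. A gene needed 1 CPM or more in 2 or more libraries, and p-values were adjusted by Benjamini-Hochberg over all 12510 genes. Steps were tested on simulated data. Coordinates and lengths are from GENCODE M21, which held 50376 of the table's identifiers, and promoters from RefSeq.

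The members, lists and tests were chosen with earlier results of these data known. Named beside the members are Mtss1, up to 3 genes in each direction per list with the largest change (adjusted p under 0.05, no overlap), the 3 nearest profiles to Sorbs2 and the 3 nearest tested genes on each side. Genes outside this rule were named after their values were seen. Alternatives were pseudocounts of 0.1 and 5, no filter, 1 CPM in all libraries, 2 other scalings, limma-voom on recovered reads, the replicate block, a threshold of 0.01 and the removal of each library in turn.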

Additional observations from a re-analysis of the deposited data

How the results depend on the processing

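Over 13 alternative settings the number of genes higher with Mtss1 overexpression ran from 3317 to 4362, of genes lower from 3621 to 4337, of other adhesion genes higher from 27 to 36 and of those lower from 26 to 33, all within 1.5 times the reported counts. None of the 9 members changed sign in a setting in which it was tested. Nor did any other gene called in the reported fit among 42 examined. These 42 were Mtss1, the adhesion genes named by the rule above, the nearest profiles, the neighbours of Sorbs2, and Tns2, Tln2 and Krt8. The uncalled 1700029J07Rik ran from -0.13 to 0.30. Of 117 values for the 9 members, 106 moved by less than the spread between replicates. The settings with no filter, 1 CPM in all libraries, the replicate block or a threshold of 0.01 cannot move a fitted difference. Their values are among the 106 and, like their signs, were fixed in advance. Removing 1 library can move a difference only within the spread used here, which is computed from the same replicate differences. Those values were thus bound to be among the 106 too. Where the groups do not overlap, neither such a removal nor a pseudocount can turn a sign. The 11 values that moved came from the pseudocounts, a scaling and limma-voom. Sorbs2 ran from 4.28 (pseudocount of 5) to 6.22 (limma-voom), Tns1 from -2.17 to -1.19, Zyx from 0.31 to 0.38, Tns3 from 0.33 to 0.41, Vcl from 0.18 to 0.24 and Tln1 from 0.01 to 0.07. Of 533 values for these 42 genes 8 lost their call, 6 of them for Flot1, 1 for Svil (without control 2) and 1 for Cyp4v3 (without control 1), and the cause was not tested. The low genes Lpxn (-2.56 to -0.60), Elmo1 (-1.87 to -0.37), Kank3 (0.51 to 1.78) and Stard8 (0.84 to 1.68) moved by more than 1.5 times, with the outer values at a pseudocount of 5 and in limma-voom. Gm45457, at 0 in control, ran from 0.76 to 7.20. Lpxn, Elmo1, Gm45457 and 1700029J07Rik were not tested in 3 settings each and Kank3 in 1, since fewer libraries then reached the filter.

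Deviations of same-numbered libraries were close to uncorrelated across genes (-0.024). With 2 libraries per group and sampling noise in each value, this cannot show whether same-numbered libraries were prepared together. With the replicate block 4040 genes were higher and 4337 lower, with 34 and 33 of the other adhesion genes. With 2 libraries per group the spread rests on 2 residual degrees of freedom per gene and a prior of 20.0 shared across genes.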

Other observations

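The deposited table carries its own gene annotation, and 8 of the 9 genes are listed there as focal adhesion components, all but Sorbs2, which is listed under cell junction, cytoskeleton and cell adhesion. Vinculin binding is listed for Pxn, Sorbs3 and Tln1, and RNA binding for Sorbs2, Tns1 and Zyx. Of 302 tested genes with the focal adhesion term, the 9 left out, 141 were higher with Mtss1 overexpression, 93 were lower and 68 did not pass (limma adjusted p under 0.05). Together 77.5% passed, against 66.1% of all tested genes, and their median log2 difference was 0.07, against -0.01. This annotation was used after the values had been seen. In CPM, the ratio of Zyx to Pxn was 2.85 and 2.58 with overexpression and 2.3 and 2.23 in control, and that of Ptk2 to Pxn was 1.2 and 1.19 with overexpression and 1.39 and 1.3 in control, so neither pair overlapped between the groups.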
